A study of Homo sapiens with 8 samples.

Results

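The 6q23 locus of PDE7B, MAP7 and MAP3K5 was described in H3K27ac peak lists of A549 cells, a widely used line from a human lung adenocarcinoma with active NRF2, the transcription factor of the oxidative stress response. H3K27ac is an acetylated histone that marks active promoters and enhancers, and a peak is a stretch of genome that the authors' peak caller found enriched in the immunoprecipitated DNA of 1 library. The locus was taken as chromosome 6 from 136.0 to 137.2 Mb (hg19), with PDE7B at 136.173 to 136.517 Mb, MAP7 at 136.664 to 136.872 Mb and MAP3K5 at 136.878 to 137.114 Mb. Peaks of the 4 lists that overlapped by 1 bp or more were merged into regions, and 74 of the 60669 regions on chromosomes 1 to 22 and X overlapped this window. The window was selected on the peak calls themselves, because many of its regions carried peaks in the controls and none after CEBPB knockdown. All differences between the treatments given here therefore describe the locus, and no test was made on them. With 2 libraries in each group, an exact permutation test could not give a p below 0.333.

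The knockdown libraries were transfected with siRNAs that target CEBPB, a transcription factor of the C/EBP family: 1 library with CEBPB siRNA-1 and 1 with CEBPB siRNA-2, called siRNA-1 and siRNA-2 here. The other 2 libraries, control 1 and control 2, were transfected with a control siRNA. All 4 came from the same cell line, harvested 48 h after transfection, and the sources used here do not say whether they were separate cultures, so the spread between libraries may be technical. The spread between the knockdown libraries also holds any difference between the siRNAs. How far CEBPB itself was lowered is not measured by these lists, and they hold no transcripts with which to check the cell line. The lists carry no read counts, so sequencing depth is unknown, and a region without a peak is a region without a call, not a region shown to lack acetylation.

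PDE7B encodes a phosphodiesterase that breaks down cyclic AMP, and so limits signalling through protein kinase A. MAP7, also called ensconsin, is a microtubule-associated protein of epithelial cells that recruits the motor kinesin to microtubules. MAP3K5, also called ASK1, is a kinase at the head of the stress-activated MAP kinase cascades, which reduced thioredoxin holds inactive and oxidative stress releases. PDE7B is read from left to right along the chromosome, and MAP7 and MAP3K5 are read in the opposite direction, so the 5′ end of each is its left end for PDE7B and its right end for the other two.

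The promoter sequences are shown because the called length at the 3 gene starts is given further on: it was shorter in both knockdown libraries at PDE7B and MAP3K5, whereas at MAP7 the siRNA-2 value lay between the controls. RefSeq lists 1 start for PDE7B, 4 for MAP7 and 2 for MAP3K5, each with 250 bases before and 50 after the start, in GRCh38.p14 coordinates. The peak lists use hg19, so peaks were not placed on these sequences. Printed 5′ to 3′ are PDE7B (chr6:135851451-135851750, plus strand), the outermost start of MAP7 (chr6:136550373-136550672, minus strand), an inner start of MAP7 (chr6:136526533-136526832, minus strand) and the outermost start of MAP3K5 (chr6:136793042-136793341, minus strand). Capitals mark motif matches.
PDE7B: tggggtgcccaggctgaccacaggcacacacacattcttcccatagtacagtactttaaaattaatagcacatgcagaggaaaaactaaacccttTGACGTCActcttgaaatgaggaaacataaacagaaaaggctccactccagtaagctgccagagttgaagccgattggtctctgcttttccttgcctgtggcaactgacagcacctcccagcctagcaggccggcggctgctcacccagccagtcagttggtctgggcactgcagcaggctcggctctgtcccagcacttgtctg
MAP7 outermost start: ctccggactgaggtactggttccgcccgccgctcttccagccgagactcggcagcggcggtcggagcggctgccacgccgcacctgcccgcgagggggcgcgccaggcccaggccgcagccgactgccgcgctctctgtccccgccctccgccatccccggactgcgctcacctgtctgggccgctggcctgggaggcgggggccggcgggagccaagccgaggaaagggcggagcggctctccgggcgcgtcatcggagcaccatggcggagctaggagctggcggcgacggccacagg
MAP7 inner start: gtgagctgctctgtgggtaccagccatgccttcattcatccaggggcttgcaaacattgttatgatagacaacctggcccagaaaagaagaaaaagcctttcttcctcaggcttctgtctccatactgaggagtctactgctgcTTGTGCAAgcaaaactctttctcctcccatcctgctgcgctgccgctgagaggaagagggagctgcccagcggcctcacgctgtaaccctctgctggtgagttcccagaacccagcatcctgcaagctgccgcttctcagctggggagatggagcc
MAP3K5 outermost start: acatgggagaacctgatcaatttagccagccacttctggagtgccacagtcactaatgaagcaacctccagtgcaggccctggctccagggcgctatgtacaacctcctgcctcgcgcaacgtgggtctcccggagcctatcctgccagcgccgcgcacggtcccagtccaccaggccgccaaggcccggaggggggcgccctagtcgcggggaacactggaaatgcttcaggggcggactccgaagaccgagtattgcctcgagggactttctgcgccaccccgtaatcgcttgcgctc

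Both strands of all 7 listed promoters were searched for TTGCNNAA (C/EBP), TGACTCA (AP-1) and TGACNNNGC (the antioxidant response element bound by NRF2), and for TGACGTCA, the cyclic AMP response element, which was added after the PDE7B sequence had been read. The C/EBP letters occurred in 2 of the 4 MAP7 promoters, as TTGTGCAA 106 bases before the inner start shown and as TTTAGCAA 236 bases before another inner start, both of them matches to the pattern on the other strand (TTNNGCAA). They occurred in 10.5% of the 35116 promoters of the table. The PDE7B promoter held TGACGTCA 155 bases before its start, a match found in 1.85% of all promoters. None of the 7 held the AP-1 letters or the antioxidant response element, which 4.95% and 13.3% of all promoters held. The outermost MAP7 promoter was 76.3% G and C with 39 CG pairs and the outermost MAP3K5 promoter 63.3% with 22, whereas PDE7B had 52.7% with 5, against medians of 58.7% and 14 CG pairs over the table.

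Less of the locus was called as acetylated after CEBPB knockdown. The siRNA-1 library had a called length (the bases under peaks) of 78.5 kb and the siRNA-2 library one of 85.3 kb, against 114 kb in control 1 and 110.0 kb in control 2. Both knockdown libraries lay below both controls, and the means were 81.9 ± 4.85 kb and 112 ± 2.67 kb (SD, n = 2 each), a ratio of 0.73. Over chromosomes 1 to 22 and X the same ratio was 1.02, and there the knockdown libraries and the controls overlapped. The window held 41 peaks in the siRNA-1 list and 48 in the siRNA-2 list, against 66 in control 1 and 68 in control 2, while the whole lists were longer after knockdown, at 47370 and 48216 peaks against 45537 and 45651.

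**Figure D1:**
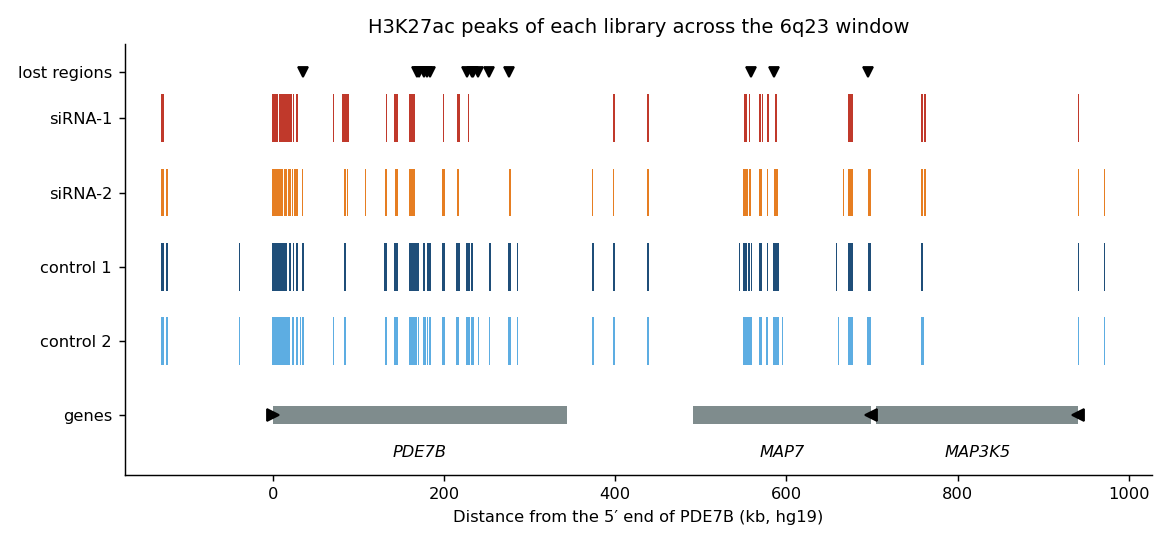
Each bar is a peak of the library named at the left, drawn to scale from its start to its end (at least 1 kb wide so that it can be seen), against distance from the 5′ end of PDE7B in kb. Grey boxes are the 3 genes with an arrowhead at the 5′ end, and black triangles mark the 15 regions called in both controls and with neither siRNA, 12 of them in PDE7B, 3 in MAP7 and 0 in MAP3K5.

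In the window 47 regions had a peak in both controls, and 15 of them were lost, meaning that neither knockdown library had a peak there. This is 31.9%, against 13.3% of the 32069 such regions genome-wide. No region was gained: of the 26 regions called with both siRNAs, 0 lacked a peak in both controls, against 13.6% genome-wide. The other regions of the window were 25 kept ones, called in all 4 libraries, 7 called in both controls and with 1 siRNA (5 lacking siRNA-1, a pattern of 5.95% of regions called in both controls genome-wide, and 2 lacking siRNA-2, 5.54% genome-wide), 18 called in 1 control only, 6 called with 1 siRNA only and 3 other mixtures. Requiring a −log10 q of 10 or more of every peak gave 8 lost regions, cutting the lists to equal called length gave 9, and merging peaks within 1 kb gave 6. The count also depends on each control: it was 25 without control 1 and 28 without control 2, since a region then needs a call in the remaining control only. Leaving out siRNA-1 gave 17, and leaving out siRNA-2 gave 20. Gained regions numbered 4 without siRNA-1, 5 without siRNA-2 and 1 without control 1 or without control 2. They numbered 1 at a −log10 q of 10 or more or at equal called length, and 7 with a reciprocal overlap of 50%.

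Lost regions made up -12.0 kb of the mean difference in called length of -30.0 kb (knockdown minus control). They held 12.3 kb of peaks in control 1 and 11.7 kb in control 2. The 7 regions called in both controls and with 1 siRNA made up a further -9.29 kb, with 0.925 kb under peaks in the siRNA-1 library and 4.73 kb in the siRNA-2 library, against 12.3 kb in control 1 and 11.9 kb in control 2. The 12 kept regions that were shorter in both knockdown libraries than in both controls, as 25.6% of kept regions were genome-wide, made up -9.40 kb, with 38.1 kb and 41.6 kb after knockdown against 49.2 kb in each control. In the opposite direction, the 4 kept regions that were longer in both knockdown libraries, as 26.9% were genome-wide, held 10.7 kb in the siRNA-1 library and 8.25 kb in the siRNA-2 library, against 4.88 kb in control 1 and 4.79 kb in control 2. The difference was spread over peaks that were absent, regions where only 1 siRNA left a peak, and peaks that were shorter.

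PDE7B carried most of the called length of the locus, and it held 27 of the 47 regions called in both controls and 12 of the 15 lost ones. In MAP7, 3 of 10 regions called in both controls were lost. The lost share of such regions was 13.3% genome-wide. The called length of PDE7B was 49.7 kb in the siRNA-1 library and 45.6 kb in the siRNA-2 library, against 67.4 kb in control 1 and 63.4 kb in control 2. Of PDE7B, 14.4% and 13.3% was thus called after knockdown, and 19.6% and 18.4% in the controls. The groups did not overlap, at 47.6 ± 2.87 kb and 65.4 ± 2.78 kb (SD, n = 2 each). Against the mean of the controls, the difference was -15.7 kb for siRNA-1 and -19.8 kb for siRNA-2. MAP7 was called over 17.5 kb in the siRNA-1 library and 27.1 kb in the siRNA-2 library, against 29.2 kb in control 1 and 29.6 kb in control 2. Both knockdown values were below both controls, but the mean difference of -7.04 kb rested on siRNA-1: it was -2.25 kb without that library and -11.8 kb without siRNA-2. Little of MAP3K5 lay under peaks in any library, 1.12 to 1.5% of the gene. The called length was 3.02 kb and 2.65 kb after knockdown, against 3.14 kb and 3.55 kb in the controls. Its mean difference was -0.51 kb, and it was -0.30 kb without control 2 and -0.32 kb without siRNA-2.

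**Figure D2:**
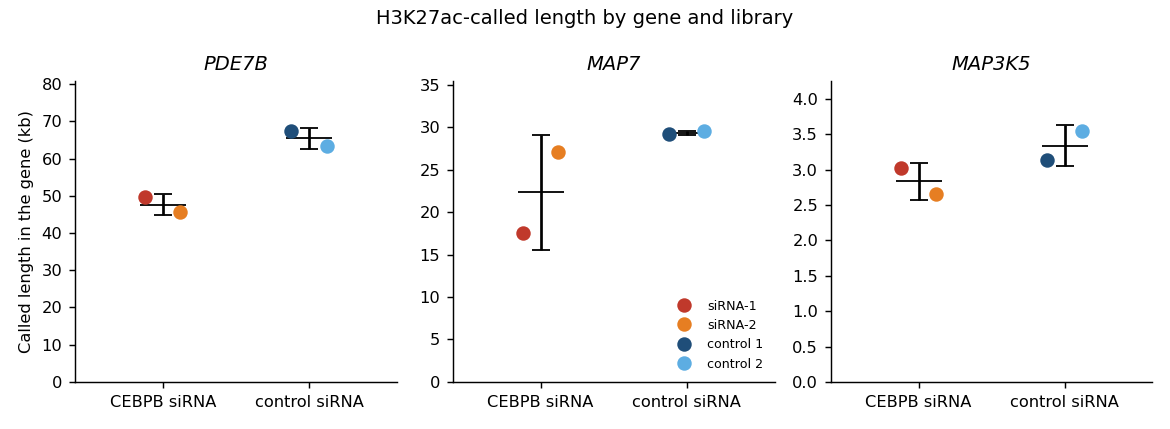
Called length in kb within each gene for siRNA-1 and siRNA-2 (left of each panel) and control 1 and control 2 (right), with a bar at the group mean and whiskers of 1 SD (n = 2). Each panel has its own scale from 0: PDE7B reaches 67.4 kb and MAP3K5 3.55 kb, and in MAP7 siRNA-2 lies close to the controls while siRNA-1 is at 17.5 kb.

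Within PDE7B the net difference in called length lay in bins away from the 5′ end. In bins of 100 kb, the bin that holds the PDE7B start (136.1 to 136.2 Mb) had 22.8 kb and 20.2 kb called after knockdown, against 22.6 kb in control 1 and 20.3 kb in control 2, and the groups overlapped. That bin held differences in both directions (knockdown minus control). The region over the 5′ end differed by a mean of -1271.5 bp and the region chr6:136190547-136195797 by 2328.5 bp. The next bin (136.2 to 136.3 Mb) had 9.0 kb and 5.42 kb after knockdown and 5.65 kb and 6.52 kb in the controls, again overlapping. In the bin at 136.3 to 136.4 Mb, 18.1 kb and 19.7 kb were called after knockdown, against 30.7 kb and 28.9 kb in the controls, a ratio of means of 0.64. In the bin at 136.4 to 136.5 Mb, over the 3′ part of the gene, 0.68 kb and 0.999 kb were called after knockdown, against 9.93 kb and 9.12 kb, a ratio of 0.088. Among the 3821 bins of the genome with at least 5 kb called on average in the controls, that ratio was the 8th lowest, and the bin at 136.3 Mb stood at place 621. The other ranked bins of the window stood at places 454 (136.0 Mb), 959 (136.7 Mb), 1256 (136.8 Mb), 2195 (136.1 Mb) and 2961 (136.2 Mb). As the window was chosen on these same calls, a low place partly follows from the choice and is a description only. Of the 11 bins of the window with a call in both controls, 6 were lower in both knockdown libraries than in both controls, against 32.7% of bins genome-wide, and 0 were higher, against 27.2%.

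**Figure D3:**
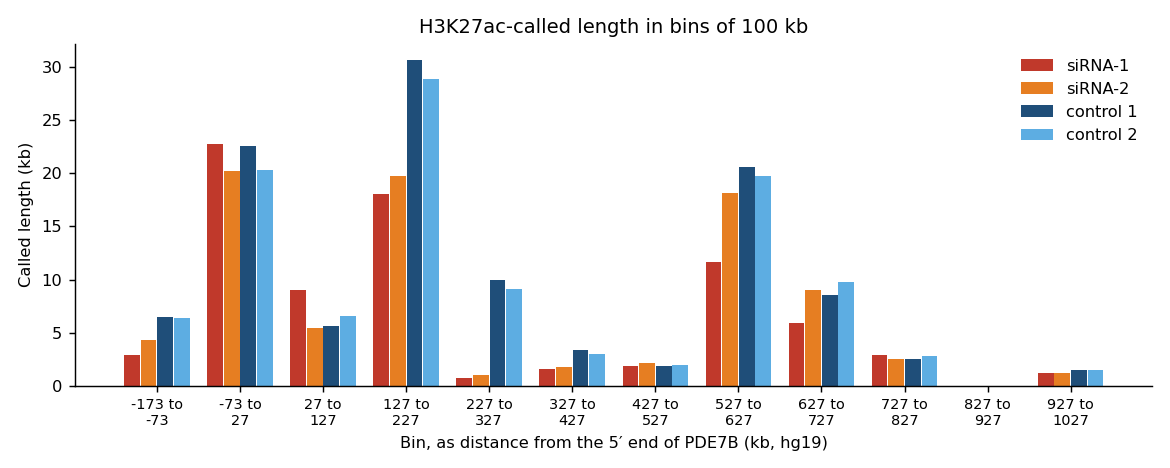
Called length in kb in each bin of 100 kb, with siRNA-1, siRNA-2, control 1 and control 2 from left to right in each bin, against the bin's distance from the 5′ end of PDE7B in kb. The bins from 127 kb to 327 kb, inside PDE7B, are lower in both knockdown libraries than in both controls, the bin around the PDE7B start is not, and the bin over the body of MAP7 at 527 kb is lowest with siRNA-1.

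The first lost region of PDE7B, chr6:136208435-136209444, lay 35.4 kb inside the gene and was called over 625 bp in control 1 and 1010 bp in control 2. The next 5 lay together between 168 and 182 kb inside it. Among these, chr6:136348015-136351203 was called over 2060 bp in control 1 and 2971 bp in control 2, with fold enrichments at the summit of 6.56 and 8.03. The region chr6:136355198-136358118 was called over 2676 bp and 1962 bp, with fold enrichments of 10.2 and 10.6. The other 3 of this group, chr6:136340861-136342172, chr6:136342934-136343710 and chr6:136352933-136353580, had between 260 and 1005 bp called and fold enrichments of 3.25 to 5.25. In these 3 the peaks of the controls overlapped only in part. At chr6:136340861-136342172 they barely did: the control 1 peak began at 136341168 and the control 2 peak ended at 136341176. Fold enrichments are the authors' values per peak over their background, and they move with library depth; they rank peaks within a list and are not compared between lists.

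A further 6 lost regions lay from 226 to 275 kb inside PDE7B. By −log10 q the strongest of all lost regions was the last of these, chr6:136447823-136448973, with 803 bp called in control 1 and 1111 bp in control 2 at fold enrichments of 11.5 and 10.0, which placed it at percentiles 71.5 and 68.2 of the control lists by −log10 q. The other 5, chr6:136399132-136399633, chr6:136404938-136405447, chr6:136405950-136407031, chr6:136412288-136412594 and chr6:136426035-136426298, were short and weak, with 238 to 965 bp called and fold enrichments of 3.28 to 5.11. The 3 lost regions of MAP7 were chr6:136731550-136732661, called over 1038 bp in control 1 and 660 bp in control 2, chr6:136757749-136758442, called over 642 and 385 bp, and chr6:136868234-136868680, called over 398 and 356 bp and 3.32 kb inside the MAP7 5′ end. MAP3K5 had 0 lost regions among its 3 called in both controls, too few to set against the genome-wide share of 13.3%.

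Most lost regions of the locus were weak, as lost regions were genome-wide. Their median fold enrichment was 5.25 in control 1 and 4.74 in control 2, against 4.91 and 4.74 over all 4250 lost regions, and their median called length was 624 bp and 391 bp, against 584 bp and 491 bp. In the window 28 regions reached a −log10 q of 10 in each control, and 4 of these were lost (14.3%), against 3.43% of such regions genome-wide. Lost regions stood a median of 12.6 kb from the nearest kept region (range 0.328 to 56.6 kb), and 4 of the 15 were within 5 kb of one. A peak of either knockdown library could lie much nearer than a kept region. At chr6:136447823-136448973 such a peak was 0.531 kb away and the kept region 56.6 kb, and at chr6:136868234-136868680 these distances were 0.136 and 17.4 kb. At others, such as chr6:136355198-136358118 (12.9 and 12.8 kb), both distances were close. The 2 nearest to kept regions were those of MAP7 at 0.439 and 0.328 kb.

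The strongest peak of the locus in every list was kept, and it lies just before the group of lost regions at 168 to 182 kb. It was the region chr6:136331680-136340316, 159 kb inside PDE7B, called over 7911 bp with siRNA-1 and 7930 bp with siRNA-2, against 8461 bp in control 1 and 8511 bp in control 2. Its fold enrichments were 81.1 with siRNA-1, 62.1 with siRNA-2, 88.9 in control 1 and 81.7 in control 2, and it ranked 235, 213, 130 and 154 in these lists. The lists differ in length, and by −log10 q these places were percentiles 99.50, 99.56, 99.71 and 99.66. They were lower in both knockdown lists than in both control lists, and whether the acetylation of this peak changed was not tested. Both knockdown lengths were below both control lengths, at a ratio of 0.93, while the lost region chr6:136340861-136342172 began 0.545 kb beyond its end.

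**Figure D4:**
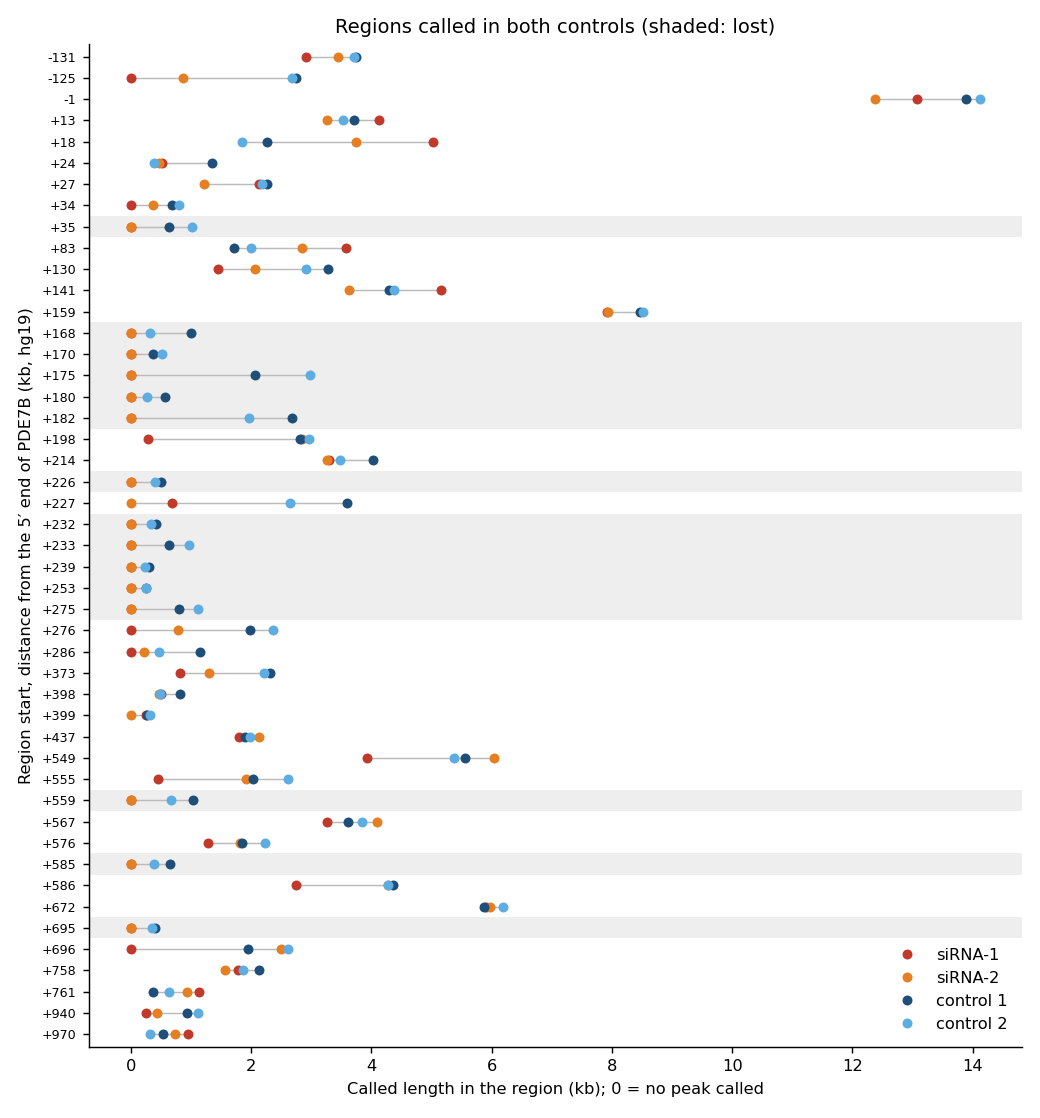
Called length in kb of each library in the 47 regions called in both controls, ordered by distance of the region start from the 5′ end of PDE7B in kb; 0 means no peak, and points at the same value hide each other. Shaded rows are the 15 lost regions, 5 of them in a run from 168 to 182 kb, just beyond the region at 159 kb that was called over 7.9 to 8.5 kb in all 4 libraries.

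The 5′ end of PDE7B lay in the longest acetylated region of the locus, chr6:136171806-136185971, which was kept. It was called over 13082 bp with siRNA-1 and 12383 bp with siRNA-2, against 13885 bp in control 1 and 14123 bp in control 2, shorter in both knockdown libraries at a ratio of 0.91. It was split into 2 peaks in the siRNA-1 list and 3 in the siRNA-2 list, and was 1 peak in each control. A pair of regions further into the gene were longer after knockdown. The region chr6:136190547-136195797, 17.5 kb inside PDE7B, was called over 5030 bp with siRNA-1 and 3737 bp with siRNA-2, against 2268 bp in control 1 and 1842 bp in control 2. The region chr6:136256364-136259944, 83.4 kb inside it, was called over 3569 and 2844 bp after knockdown, against 1708 and 1999 bp in the controls. Its fold enrichments, which are not compared between lists, were 48.3 with siRNA-1, 28.2 with siRNA-2, 10.8 in control 1 and 10.2 in control 2. It ranked at percentiles 94.6 and 90.0 of the knockdown lists and 65.6 and 65.6 of the control lists by −log10 q. Around it, 4 short regions were called with siRNA-1 only. PDE7B thus held both directions: the longer regions ended 86.9 kb from its 5′ end, and 11 of its 12 lost regions lay beyond them.

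Other kept regions of PDE7B were shorter after knockdown or overlapped between the groups. The region chr6:136303485-136306758 was called over 1450 bp with siRNA-1 and 2065 bp with siRNA-2, against 3274 bp in control 1 and 2915 bp in control 2, the largest shortening of a kept region in this gene by mean bp, though not by ratio. The region chr6:136314435-136319686 overlapped between the groups, at 5162 and 3628 bp after knockdown and 4287 and 4373 bp in the controls. The region chr6:136400128-136403727, singled out after its values were seen, was the longest that a single siRNA left: it kept 680 bp with siRNA-1 and no peak with siRNA-2, against 3600 bp in control 1 and 2639 bp in control 2. The knockdown libraries also differed at chr6:136370962-136373947, likewise singled out, with 288 bp called with siRNA-1 and 2849 bp with siRNA-2. The controls had 2814 bp (control 1) and 2966 bp (control 2) there.

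At MAP7, the region next to the 5′ end was called with only 1 of the siRNAs, and a long region inside the gene with both. The region chr6:136868816-136871517, which ends 0.483 kb from the 5′ end, had no peak with siRNA-1 and was called over 2489 bp with siRNA-2, against 1940 bp in control 1 and 2617 bp in control 2. The region chr6:136844694-136850873, 21.1 kb inside the gene, was called over 5897 bp with siRNA-1 and 5971 bp with siRNA-2, against 5877 bp in control 1 and 6180 bp in control 2, and the groups overlapped. Further in, the region chr6:136721743-136728121 was called over 3917 bp with siRNA-1 and 6044 bp with siRNA-2, against 5552 bp in control 1 and 5372 bp in control 2. The siRNA-1 value lay below both controls and the siRNA-2 value above both. With 1 library for each siRNA, a difference between the siRNAs cannot be told apart from one between libraries. The kept regions chr6:136728403-136731111, chr6:136749487-136751938 and chr6:136758770-136763255 were shorter in both knockdown libraries, at ratios of means of 0.51, 0.76 and 0.81. In the last of these siRNA-2 had 4276 bp, against 4278 bp in control 2. At chr6:136740438-136744762 the groups overlapped. Of kept regions genome-wide, 25.6% were shorter in this way.

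At MAP3K5, the region over the 5′ end was kept but short. It was chr6:137113219-137114328, called over 252 bp with siRNA-1 and 435 bp with siRNA-2, against 929 bp in control 1 and 1110 bp in control 2. Both knockdown values were below both controls, and the ratio of means, 0.34, was the lowest of the 25 kept regions of the window. Fold enrichments at the summit, which are not compared between lists, were 3.82 with siRNA-1, 5.23 with siRNA-2, 5.91 in control 1 and 10.6 in control 2. By −log10 q the region stood at percentiles 15.3, 38.1, 41.1 and 66.7 of these lists. The body of MAP3K5 had 2 further kept regions, and in the 100 kb bin at 137.0 to 137.1 Mb no library had a peak.

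Between PDE7B and MAP7, where RefSeq places MTFR2 and BCLAF1, 4 regions were called in both controls. The region chr6:136546016-136548382 was called over 821 bp with siRNA-1 and 1300 bp with siRNA-2, against 2315 bp in control 1 and 2218 bp in control 2, a ratio of means of 0.47. The groups did not overlap there, whereas they overlapped in the other 2 kept regions of this stretch.

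Among the 25 kept regions of the window, 12 were shorter in both knockdown libraries than in both controls (48%), against 25.6% of the 24133 kept regions genome-wide, and 4 were longer (16%), against 26.9%. The ratio of mean called lengths had a median of 0.87 in the window (range 0.34 to 2.13) and of 1.01 over all kept regions. The 4 longer ones included, besides the 2 in PDE7B, 1 inside MAP3K5 and 1 beyond its 5′ end.

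The 2 knockdown libraries shared most absences, and the siRNA-1 library had more of its own. Among the 47 regions with a peak in each control, 5 lacked a peak with siRNA-1 only (10.6%, against 5.95% genome-wide) and 2 with siRNA-2 only (4.26%, against 5.54%). The share of called bases common to 2 libraries, of those called in either, was 0.68 between siRNA-1 and siRNA-2 and 0.76 between the controls, against 0.54 for siRNA-1 with either control and 0.63 and 0.64 for siRNA-2 with control 1 and control 2. Genome-wide these values were 0.66, 0.76, 0.57 to 0.58 and 0.60 to 0.61. In MAP7, siRNA-2 shared 0.73 and 0.79 of called bases with the controls and 0.64 with siRNA-1, so that the siRNA-2 list was closer to the controls than to the other knockdown list there, while in PDE7B it shared 0.58 with each control and 0.70 with siRNA-1.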

How the data were processed

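H3K27ac immunoprecipitates from 2 CEBPB siRNA and 2 control siRNA transfections were analysed; the 4 input libraries were not used here. The submitters' processing notes name BWA (0.7.17), SAMtools (1.7.0), the peak caller MACS2 (2.2.7.1) and the build hg19; options and use of the inputs: not given in the sources used here. Per the labels' protocols reads were single-end, of 101 bases. For each library the authors deposited a peak list with a fold enrichment (a linear ratio), a −log10 p, a −log10 q and a score that repeats the −log10 q; starts, ends and summits were used here with the fold and −log10 q. The highest q was 0.0498. Depth is unknown.

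Autosomal and X peaks were merged at 1 bp overlap in Python 3.11.15; coordinates are 1-based. A region was assigned to the gene that holds its midpoint, and lay at a 5′ end if within 2 kb. Gene intervals are given to 1 kb. Described by name were regions at gene starts, all lost and gained regions, the 5 longest kept regions and the 5 kept regions with the largest non-overlapping difference. The window, the genes and the lists were chosen with earlier results of these data known. Promoters came from RefSeq (GRCh38.p14); the planned motif search around summits and the planned list of pathway genes needed an hg19 genome and were not done. Merging and counting were tested on simulated lists. In these the regions lay well apart and the peaks were unsplit, so close or split peaks were not tested. Alternatives were a −log10 q of 10 or more, equal called length, merging within 1 kb, reciprocal overlap of 50%, each library left out and a replicate block.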

Additional observations from a re-analysis of the deposited data

How the results depend on the processing

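Over the alternatives run, called length in the window, PDE7B, MAP7 and MAP3K5 stayed below the controls. Restricting every list to peaks of −log10 q 10 and above, lost regions numbered 8, gained 1 and kept 15. The knockdown minus control differences were then -25.0 kb in the window, -12.1 kb in PDE7B and -10.5 peaks. Fewer peaks enter at that threshold, and the cause of the changes was not tested. With that threshold only where a call is needed, 4 regions were lost and 15 kept. With equal called length (61.7 Mb per list), 9 were lost, 1 gained, and the difference was -18.5 peaks. The longer lists, of knockdown and control libraries alike, are cut there, and the cause of the changes was not tested. Merging peaks within 1 kb, which joins neighbouring regions into larger ones, gave 6 lost regions. A reciprocal overlap of 50% gave 15 lost, 7 gained and 10 kept peaks; the cause was not tested. Leaving out 1 library at a time gave 17 to 28 lost regions, 1 to 5 gained and 25 to 30 kept ones. With 1 library left out, the window difference ranged from -33.4 to -26.6 kb, PDE7B from -19.8 to -15.7 kb, MAP7 from -11.8 to -2.25 kb, MAP3K5 from -0.71 to -0.30 kb and peaks from -26 to -19. With the label numbers as a replicate block, the window difference was -30.0 kb (-35.3 kb in number 1 and -24.7 kb in number 2), PDE7B -17.8 kb, MAP7 -7.04 kb, MAP3K5 -0.51 kb and peaks -22.5, and lost regions stayed 15, by construction. The numbers are not stated to pair libraries; over 16075 bins of 100 kb the differences control 1 minus control 2 and siRNA-1 minus siRNA-2 correlated at 0.24, from 2 pairs only. No count or length could be corrected for depth.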

Other observations

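The regions nearest the edges of the window show how it was bounded. The first region inside, chr6:136042072-136045819, lay 42.1 kb from the edge and was called over 2908 bp with siRNA-1 and 3445 bp with siRNA-2, against 3736 bp in control 1 and 3706 bp in control 2. The nearest region outside on that side, chr6:135997226-135998193, ended 1.81 kb before the edge and was lost, with 945 bp called in control 1 and 869 bp in control 2. On the other side the last region inside, chr6:137143384-137144388, was called over 945 and 737 bp after knockdown, against 539 and 314 bp in the controls. The nearest region outside there began 122 kb beyond the edge and was called with siRNA-2 and in control 2.

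Over the 25 kept regions of the window, the median distance between the strongest summits of 2 libraries was 150 bp between siRNA-1 and siRNA-2 and 95 bp between the controls, and 95 to 147 bp between a knockdown library and a control. Genome-wide these medians were 73 bp, 69 bp and 75 to 80 bp, so that every median of the window was above its genome-wide value. Kept regions of the window were also longer, with median called lengths of 2132 to 2844 bp per library, against 1471 to 1646 bp genome-wide. Whether their length bears on the distances was not tested. The highest distance in the window was 8001 bp between siRNA-1 and siRNA-2 and 8915 bp between the controls, and 1026 to 9156 bp between a knockdown library and a control. The distances of 8001, 8915 and 9156 bp all came from the region over the PDE7B 5′ end, chr6:136171806-136185971. Its strongest summit was at 136183916 with siRNA-1 and 136183675 in control 1, but at 136175915 with siRNA-2 and 136174760 in control 2.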
